A study of Mus musculus with 12 samples.

Results

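A set of 9 genes that encode neuropeptides of the hypothalamus were followed through the whole brains of 12 mice, out of 19775 genes in the deposited table. They were chosen by symbol and not by their values: Oxt (oxytocin), Avp (vasopressin), Hcrt (hypocretin, or orexin), Pmch (melanin-concentrating hormone), Pomc (proopiomelanocortin), Crh (corticotropin-releasing hormone), Trh (thyrotropin-releasing hormone), Cartpt (the CART peptide) and Gal (galanin). All 9 genes were in the table and all 9 passed the filter of a mean of at least 10 normalized counts that a gene needed to be tested. The mice were males of the C57BL/6N strain at about postnatal day 120, and carried either no deletion (WT), a deletion of exon 3 of Slc6a20a on 1 chromosome (HT, Slc6a20a+/–) or the same deletion on both chromosomes (HM, Slc6a20a–/–), with 4 mice in each group. They were the offspring of heterozygous parents, and the deletion was not limited to the hypothalamus. Slc6a20a encodes a proline and glycine transporter. In this table Slc6a20a had 704, 584, 678 and 750.5 normalized counts in the WT mice, between 310.3 and 372 in HT mice, and between 55.6 and 76.5 in HM mice, so each genotype label matched its target gene.

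Each of the 9 genes is translated into a longer precursor that is cut into active peptides inside secretory granules. Oxytocin and vasopressin are made by large neurons of the paraventricular and supraoptic nuclei and released into the blood. Hypocretin, which keeps animals awake, and melanin-concentrating hormone, which is linked to feeding and to sleep, come from separate cells of the lateral hypothalamus. Pomc and Cartpt are known for the arcuate neurons that restrain feeding, and Crh and Trh start the stress and the thyroid axes. Cartpt, Crh, Trh and Gal are also made by neurons outside the hypothalamus, so a whole-brain level of these 4 genes is not a hypothalamic level. In RNA from a whole brain, fewer cells of a type and less RNA per cell cannot be told apart.

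A normalized count is the estimated number of reads of a gene after the libraries have been scaled to each other, and here 1 read was worth between 0.924 and 1.13 normalized counts in the 12 mice. A gene with 100 normalized counts therefore rests on about as many reads. No library was identical to another in any of the 66 pairs. Of 6 cerebellar markers 5 were in the table, without Gabra6. In these whole-brain samples they were at unequal levels, and Pcp2, Cbln3 and Fat2 averaged only 13.0, 18.8 and 11.2 normalized counts. Pcp2, a marker of Purkinje cells, had between 5.54 and 26.4 normalized counts, and Cbln3 and Fat2, markers of cerebellar granule cells, 12.1 to 24.5 and 3.28 to 28.7. Car8 and Slc1a6, which Purkinje cells also express, had 235 to 311 and 265 to 314 normalized counts, and the amount of cerebellum in the samples was not tested. Of 15 hypothalamic markers 14 were in the table, among them Nkx2-1, a transcription factor of the ventral hypothalamus, at 67.7 to 107 normalized counts. Agrp, made by arcuate neurons that drive feeding, reached only 2.04 to 9.70 normalized counts, and Ghrh, the growth hormone-releasing hormone of the same nucleus, 2.84 to 14.0. Of 11 pituitary markers only Tshb was in the table, at 48.1 to 74.6 normalized counts, and the pituitary is another known site of Pomc expression.

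The reads of Oxt and Avp can be confused with each other, and the stretch that they share is shown for that reason. On chromosome 2 (GRCm38, GENCODE M21), Oxt (ENSMUSG00000027301) lies on the plus strand at chr2:130576173-130577054 and Avp (ENSMUSG00000037727) on the minus strand at chr2:130580620-130582554. A gap of 3565 bp separates these neighbors, which are transcribed toward each other. Their transcripts share 127 identical coding bases that run from exon 1 into exon 2, at chr2:130576328-130576715 in Oxt and at chr2:130581133-130582411 in Avp, each span with an intron inside. The shared stretch, 5′ to 3′ on the coding strand, reads
Oxt and Avp: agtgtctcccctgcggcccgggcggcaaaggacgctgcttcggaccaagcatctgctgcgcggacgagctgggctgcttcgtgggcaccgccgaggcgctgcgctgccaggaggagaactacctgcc
Of the 547 stretches of 31 bases in the Avp transcript 97 (17.7%) also occur in Oxt, and of the 507 in Oxt 108 (21.3%) occur in Avp or another gene. The values of Oxt and Avp are therefore uncertain to the extent that such reads were divided between them. Hcrt, Pmch, Crh, Trh, Cartpt and Gal had no stretch of 31 bases in common with another gene, and Pomc had 1.

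When the normalized counts were divided by transcript length, Pmch had the highest level of the 9 genes, at a mean of 982 normalized counts per kb over the 12 mice. Avp followed at 768, Oxt at 631, Hcrt at 453, Cartpt at 314, Trh at 219.5, Crh at 110.4, Gal at 94.7 and Pomc at 74.8 normalized counts per kb. These levels are averages over the whole brain, and each of these peptides is made by few cells. Pmch was above Avp in 11 of 12 mice, Avp above Oxt in 12, Oxt above Hcrt in 12, Hcrt above Cartpt in 11, Cartpt above Trh in 11 and Trh above Crh in 12. Crh was above Gal in only 9 of 12 mice, and Gal above Pomc in 9. Only between Trh and Crh did the ranges of neighboring genes not overlap, with a lowest value of 173 normalized counts per kb for Trh and a highest of 149 for Crh. For comparison, Penk and Sst, peptide genes of many forebrain neurons, had 4291 and 7204 normalized counts per kb.

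**Figure D1:**
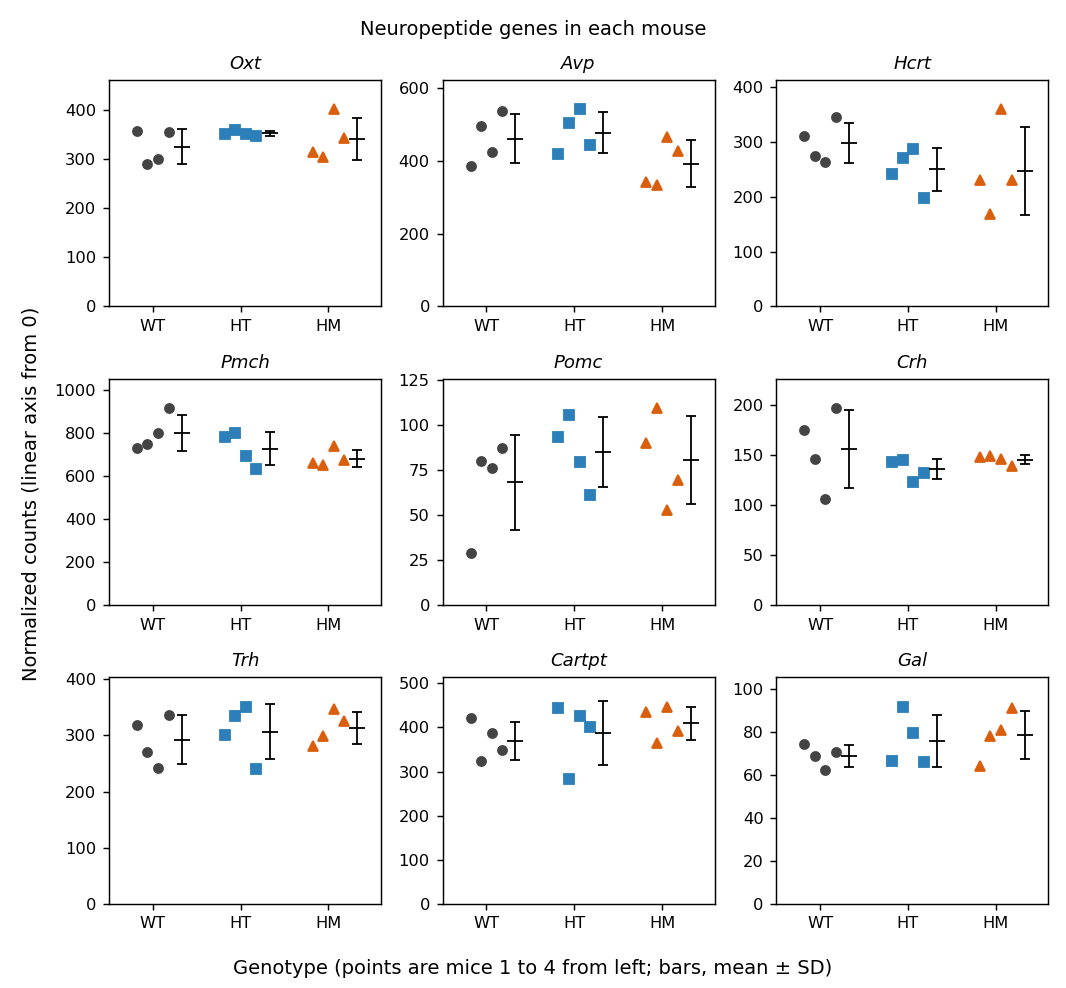
Normalized counts (vertical axes, linear from 0) of the 9 neuropeptide genes in each mouse, by genotype; points are mice 1 to 4 from left to right and bars give the mean ± SD of 4 mice. In each panel the 3 genotypes overlap, and Pomc has its lowest point, 29.2, in a WT mouse.

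The genotypes were compared pairwise with limma on log2(normalized count + 1), with p-values adjusted by the Benjamini-Hochberg (BH) method over all tested genes and a threshold of 0.05. None of the 9 genes passed in HT against WT, where 0.00555% of all tested genes did, in HM against WT (0.0111% of tested genes) or in HM against HT (0.00556%). At an unadjusted p under 0.05, 0 of 9 genes differed in HT against WT (6.42% of tested genes), 1 of 9 in HM against WT (6.99%) and 1 of 9 in HM against HT (3.74%). In no comparison did any of the 9 genes have groups that did not overlap, a pattern found in 3.73%, 4.22% and 2.38% of tested genes in the same order. The median log2 fold change of the 9 genes was 0.05 in HT against WT, 0.06 in HM against WT and -0.05 in HM against HT, where the median over all tested genes was within 0.001 of 0. The comparisons share mice, so they are not independent. Permutation tests on single genes were exact and two-sided, with a p of 0.0286 as the lowest value possible for groups of 4.

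Oxt, the oxytocin gene, had 356, 289, 299.6 and 354 normalized counts in WT mice 1 to 4, 350.1, 359, 351 and 346 in HT mice, and 313, 304, 401 and 342 in HM mice. The 4 HT values lay close together between the extremes of the other genotypes, and HM mouse 3 was the highest of all. Means were 325 ± 35.4 (WT), 352 ± 5.42 (HT) and 339.9 ± 43.5 (HM), with the SD over 4 mice. On the log2 scale the difference from WT was 0.12 for HT (95% confidence interval -0.07 to 0.31) and 0.06 for HM mice (-0.16 to 0.29).

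Avp, the vasopressin gene, had 386, 495, 424 and 537 normalized counts in WT mice 1 to 4, 418, 504, 542 and 443 in HT mice, and 340.4, 334, 466 and 427 in HM mice. HM mice 1 and 2 were below every mouse of the other genotypes, whereas HM mice 3 and 4 were within their range. The mean was 461 ± 68.0 for WT, 477 ± 56.4 for HT and 392 ± 65.2 for HM (SD, n = 4). In HM against HT mice the log2 fold change of Avp was -0.29 (SE 0.12, 95% confidence interval -0.54 to -0.04), with an unadjusted p of 0.0283 and an adjusted p of 1.000 by limma and BH. The exact permutation p was 0.143. The unadjusted p was 0.0709 to 0.0918 (limma) without HT mouse 2, HT mouse 3, HM mouse 1 or HM mouse 2. With a block for the first 3 digits of the animal number the log2 fold change was -0.10. Across HM and HT only HM mouse 4 and HT mice 1 and 2 share such digits. The blocked value rests on them alone and cannot test the difference between the full groups. Compared with WT, and without the block, the log2 fold change of Avp was 0.05 for HT and -0.24 for HM mice, with a confidence interval of -0.51 to 0.04 for the latter.

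Hcrt (ENSMUSG00000045471, chr11:100761069-100762931, minus strand), the hypocretin gene of wake-promoting neurons, had 310.3, 275, 263 and 345 normalized counts in WT mice 1 to 4, 242, 272, 288 and 198 in HT mice, and 231, 169, 359.8 and 230.0 in HM mice. HM mice held both the lowest and the highest value of the 12, a ratio of 2.13 within 1 genotype. The mean was 298 ± 37.2 for WT, 249.8 ± 39.6 for HT and 247 ± 80.4 for HM (SD, n = 4). On the log2 scale the difference from WT was -0.26 for HT (SE 0.12, 95% confidence interval -0.53 to 0.01) and -0.31 for HM mice (SE 0.18, -0.71 to 0.08). Without HM mouse 3 the latter was -0.51 (limma, BH adjusted p = 0.575), and without HM mouse 2 it was -0.15 (adjusted p = 0.932). With the block for the first digits of the animal number it was -0.02 (limma, adjusted p = 0.984). Across these genotypes only WT mice 1 and 2 and HM mice 3 and 4 share such digits, so the blocked value rests on them alone.

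Pmch (ENSMUSG00000035383, chr10:88091072-88092375, plus strand), the gene of melanin-concentrating hormone, had 731, 749, 798 and 916 normalized counts in WT mice 1 to 4, 781, 799, 695 and 633 in HT mice, and 662, 651, 738 and 672 in HM mice. Of the HM mice only mouse 3 was above the lowest WT mouse, and it was so by a few counts. The mean was 798 ± 83.4 for WT, 727 ± 77.2 for HT and 681 ± 38.9 for HM (SD, n = 4). In HM against WT mice the log2 fold change was -0.23 (SE 0.08, 95% confidence interval -0.39 to -0.06), with an unadjusted p of 0.0113 and an adjusted p of 0.655 by limma and BH. The exact permutation p was 0.0571, so the difference did not pass either test. With the block for the first digits of the animal number the log2 fold change of Pmch was -0.07 (limma, unadjusted p = 0.460, adjusted p = 0.863). As for Hcrt, the blocked value rests on WT mice 1 and 2 and HM mice 3 and 4 alone. It therefore cannot test the difference between the full groups. Without the block, leaving out single mice gave -0.27 to -0.16. In HT against WT mice the log2 fold change of Pmch was -0.14 (-0.33 to 0.05).

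Pomc (ENSMUSG00000020660, chr12:3954951-3960642, plus strand), the precursor of α-MSH and β-endorphin, had 29.2, 80.3, 76.4 and 87.1 normalized counts in WT mice 1 to 4, 93.7, 106, 79.7 and 61.0 in HT mice, and 90.4, 109.6, 53.0 and 69.8 in HM mice. WT mouse 1 stood far below the other 11 mice. The mean was 68.3 ± 26.4 for WT, 85.1 ± 19.3 for HT and 80.7 ± 24.6 for HM (SD, n = 4). The log2 fold change was 0.40 in HT against WT mice (95% confidence interval -0.24 to 1.04) and 0.30 in HM against WT mice (-0.39 to 0.99), and without WT mouse 1 these values were 0.04 and -0.06. Cartpt (ENSMUSG00000021647, chr13:99898489-99901091, minus strand), which arcuate Pomc neurons also express, had 421, 324, 386 and 348 normalized counts in WT mice, 444, 283, 425 and 400.1 in HT mice, and 435, 365, 447 and 391 in HM mice. HT mouse 2 was the lowest of the 12 for Cartpt and the second highest for Pomc. The means of Cartpt were 369.7 ± 42.8, 388 ± 72.4 and 409.5 ± 37.8 in WT, HT and HM mice (SD, n = 4), and its log2 fold change was 0.15 in HM against WT mice (-0.06 to 0.36).

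Crh (ENSMUSG00000049796, chr3:19693401-19695396, minus strand), which drives the stress axis, had 175, 146, 106 and 197 normalized counts in WT mice 1 to 4, 143, 145, 123 and 132 in HT mice, and 148, 149, 146 and 139 in HM mice. The WT mice held both ends of the range, and the mutants of either genotype lay between them. The mean was 156 ± 39.2 for WT, 136 ± 10.1 for HT and 145 ± 4.66 for HM (SD, n = 4). Trh (ENSMUSG00000005892, chr6:92242061-92244650, minus strand), which drives the thyroid axis, had 318, 271, 242 and 337 normalized counts in WT mice, 300.4, 334, 351 and 239.9 in HT mice, and 281, 299, 347 and 326 in HM mice. The lowest Trh values were those of WT mouse 3 and HT mouse 4, and the groups overlapped nearly completely. The log2 fold change in HM against WT mice was -0.07 for Crh (95% confidence interval -0.42 to 0.29) and 0.11 for Trh (-0.13 to 0.35).

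Gal (ENSMUSG00000024907, chr19:3409915-3414544, minus strand), the galanin gene, had 74.3, 69.0, 62.2 and 70.8 normalized counts in WT mice 1 to 4, 66.7, 91.9, 79.5 and 66.2 in HT mice, and 64.3, 78.2, 81.1 and 91.3 in HM mice. Its highest values were those of HT mouse 2 and HM mouse 4. The log2 fold change was 0.13 in HT against WT mice (95% confidence interval -0.20 to 0.45) and 0.18 in HM against WT mice (-0.14 to 0.50). Among the 9 genes the 95% confidence interval was widest for Pomc in each comparison, and its interval in HT against WT mice reached 1.04 on the log2 scale.

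**Figure D2:**
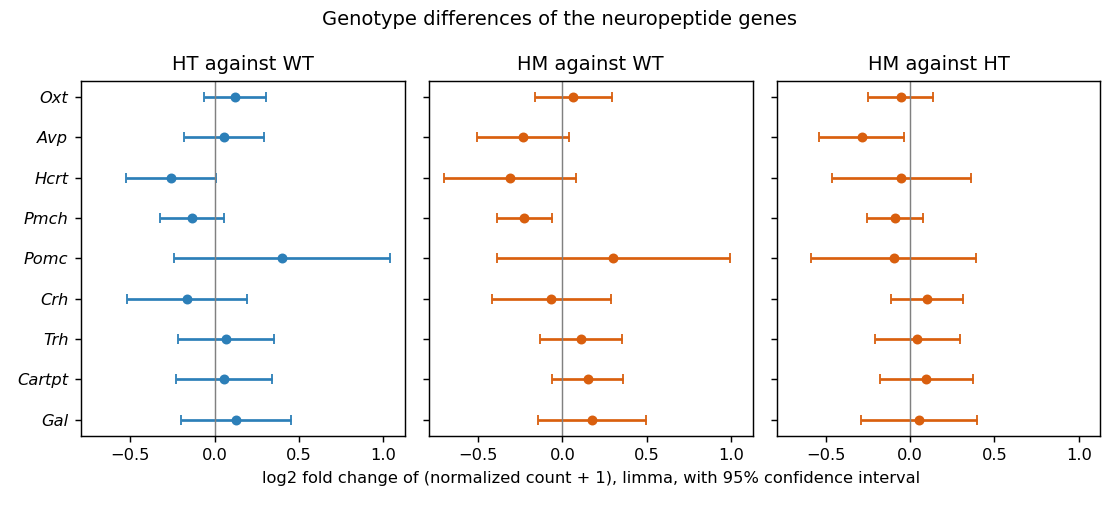
Log2 fold changes of (normalized count + 1) with 95% confidence intervals from limma (horizontal axis) for the 9 neuropeptide genes (vertical axis) in 3 comparisons of 4 mice against 4. Only the intervals of Pmch in HM against WT and of Avp in HM against HT leave out 0, and neither passed the adjustment over all genes.

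Receptors, carriers, processing enzymes and related peptides were examined as lists. Of 40 such genes tested in HT against WT, 37 in HM against WT and 40 in HM against HT, 0 passed the adjusted threshold. At an unadjusted p under 0.05 there were 3, 2 and 1 genes in the same order, shares near the 6.42%, 6.99% and 3.74% of all tested genes. The receptors numbered 16 of 19 in the table, led by Crhr1, the main brain receptor of CRH, at 742 normalized counts and Mchr1, the receptor of melanin-concentrating hormone, at 645. Of 15 receptors tested, 1 was higher in HT than in WT mice at an unadjusted p under 0.05. This was Avpr2, a vasopressin receptor known from the kidney, at only 16.4 ± 6.41 against 8.57 ± 3.28 normalized counts (n = 4, limma, unadjusted p = 0.0463, adjusted p = 0.772), and HM mice had 8.03 ± 1.48. In HM against HT mice the log2 fold change of Avpr2 was -0.87 (SE 0.35). Of 14 receptors tested in HM against WT mice, none had an unadjusted p under 0.05.

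Among 3 tested genes that bind or break down the peptides, Trhde, which cleaves TRH, had 924 normalized counts, and Lnpep, the aminopeptidase that cleaves oxytocin and vasopressin, had 5593. Lnpep had 5028, 5607, 5485 and 5198 normalized counts in WT mice and 5611, 5812, 5641 and 5751 in HM mice. All 4 HM values were above all WT values, by a small margin (log2 fold change 0.10, SE 0.04, limma, unadjusted p = 0.0321, adjusted p = 0.673). In HT against WT mice the log2 fold change of Lnpep was 0.11 (SE 0.05). Of the 10 processing genes, led by the carboxypeptidase Cpe at 55829 normalized counts and the proSAAS gene Pcsk1n at 16680.3, only Scg5, the chaperone of the convertase PCSK2, had an unadjusted p under 0.05. It was 4941 ± 333 in HM against 5501 ± 386 normalized counts in WT mice (log2 fold change -0.15, SE 0.06, n = 4, limma, adjusted p = 0.664).

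The paralogs Ucn and Ucn3, which encode urocortins related to CRH, were near the lower limit at 10.8 and 16.0 normalized counts. Of 18 other hypothalamic peptide genes 14 were in the table and 10 were tested in HT against WT, with Penk at 6217 and Sst at 5194 normalized counts the most abundant. Vip, a peptide of the suprachiasmatic clock and of cortical interneurons, had 917, 933, 907 and 882 normalized counts in WT mice and 803, 852, 846 and 828 in HT mice, with no overlap. Its log2 fold change was -0.13 (SE 0.05, limma, unadjusted p = 0.0272, adjusted p = 0.770), and the HM mice, at 888, 878, 775 and 934, spread over both ranges. Mc3r, a receptor of Pomc peptides that was singled out after its values were seen, was the other gene without overlap in HT against WT, at 29.4 ± 1.05 against 37.1 ± 4.48 normalized counts (SD, n = 4). Of the tested genes of these lists, 2 of 40 had no overlap in HT against WT (3.73% of all tested genes). In HM against WT it was 1 of 37 (4.22%), which was Lnpep.

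Between mice of the same genotype, 8 of the 9 genes varied more than the median gene of like abundance. The spread was taken as the SD of log2(normalized count + 1) around the genotype means, with 9 degrees of freedom, and divided by the median SD of all tested genes whose mean was within 2-fold. This ratio was 2.24 for Pomc, 2.23 for Hcrt, 1.82 for Avp, 1.74 for Cartpt, 1.54 for Trh, 1.36 for Pmch, 1.27 for Crh, 1.08 for Oxt and 0.77 for Gal. The SDs of Pomc and Hcrt were larger than those of 96.3% and 96.6% of their neighbors in abundance, and that of Gal than only 24.7%. Single mice carried part of this: the ratio was 1.5 for Pomc without WT mouse 1, 1.62 for Hcrt without HM mouse 3, 1.12 for Cartpt without HT mouse 2, 0.71 for Crh without WT mouse 3 and 0.85 for Oxt without HM mouse 3. With single mice left out, 7 or 8 of the 9 ratios were above 1.

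The spread was also set beside the error that the counting of reads alone would give. The coefficient of variation (CV) within genotypes was 21.1% for Hcrt, where counting alone would give 6.14%, and 30.3% for Pomc against 11.3%. For Gal the CV of 13.4% was close to the 11.6% of counting, so little spread beyond the counting error was detectable at this depth. The genotypes themselves did not spread alike. Oxt had a CV of 1.54% in HT mice, below its counting CV of 5.33%, but 10.9% in WT and 12.8% in HM mice. Crh had a CV of 25.1% in WT and 3.21% in HM mice, where its counting CV was 8.30%, and Hcrt of 12.5% in WT and 32.5% in HM mice. The CVs of Crh in HT mice (7.44% against 8.58%) and of Gal in WT mice (7.37% against 12.0%) were also below that of counting. These contrasts between genotypes rest on 4 mice each and were not tested.

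**Figure D3:**
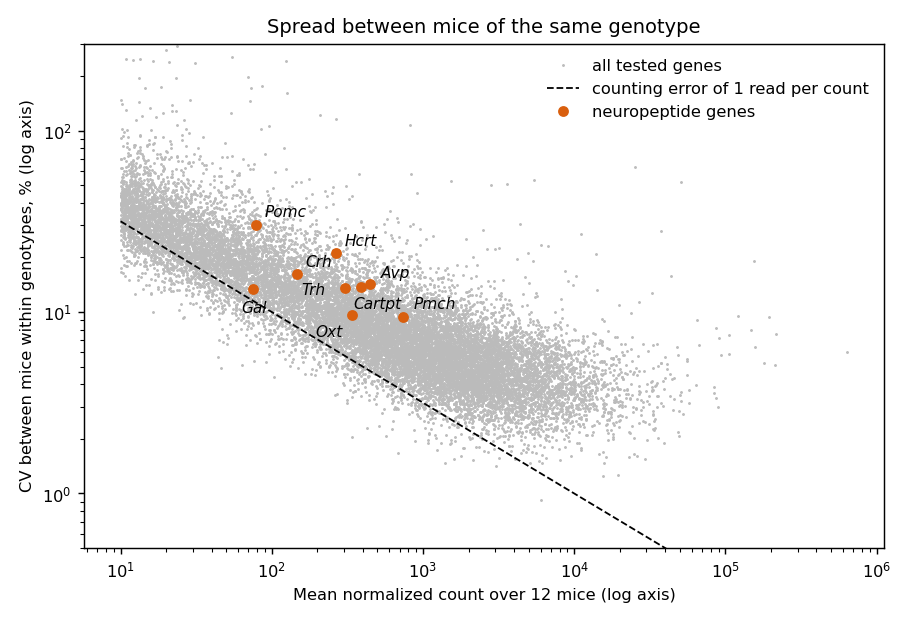
Coefficient of variation between mice within genotypes (vertical log axis, %) against the mean normalized count over 12 mice (horizontal log axis) for all tested genes in grey and the 9 neuropeptide genes in orange; the dashed line is the error of counting if 1 normalized count were 1 read. Hcrt and Pomc lie at the upper edge of the cloud and Gal near the dashed line.

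The deviations of single mice from their genotype means were next compared between the genes, to ask which neuropeptides rise and fall together in mice of one genotype. All 36 pairs were tested over the 12 mice by an exact permutation test, two-sided, that shuffled mice within genotypes (13824 orders). Of the 36 pairs 25 had a positive and 11 a negative correlation, with a median Pearson's r of 0.30. An unadjusted p under 0.05 was found in 7 pairs, or 19.4%, whereas 5.7% of the correlations between any of the 9 genes and any other tested gene had one. The 36 pairs involve only 9 genes in the same 12 mice, so they are not independent of each other. After BH adjustment over the 36 pairs, 0 passed by Pearson's r and 0 by Spearman's rho, with 7 and 6 pairs at an unadjusted p under 0.05.

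Hcrt and Trh had the lowest p. Their r was 0.72 and their rho 0.86 (n = 12, exact permutation p = 0.00210 and 0.00166, adjusted p = 0.0599 for each), and both genes lay on the same side of their genotype mean in 11 of 12 mice. HT mouse 4 was low for each of them, by 0.32 for Hcrt and 0.34 for Trh on the log2 scale, and WT mouse 4 and HT mouse 3 were high for each. Without HM mice 2 and 3, the mice farthest from the median of Hcrt, r was 0.95. When single mice were left out in turn, r stayed between 0.66 and 0.83, and the pair passed the adjusted threshold without HM mouse 1 (adjusted p = 0.0104, exact permutation) or HM mouse 2 (adjusted p = 0.0417, exact permutation).

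Hcrt and Oxt had the largest r, 0.80, with a rho of 0.80 (n = 12, exact permutation p = 0.00333 and 0.00637, adjusted p = 0.0599 and 0.113). HM mouse 3 was the highest of its genotype for each of them, and HM mouse 2 the lowest. Without WT mouse 2 and HM mouse 3, the farthest from the median of Oxt, r was 0.71. With the mean of mice that share the first 3 digits of the animal number also removed, an alternative chosen after seeing the data, r was 0.58. Trh had an r of 0.71 with Gal (rho 0.71, exact permutation p = 0.0139, adjusted p = 0.125, r = 0.63 without WT mouse 3 and HT mouse 4) and of 0.66 with Oxt (rho 0.76, exact permutation p = 0.00955, adjusted p = 0.115, r = 0.67 without WT mouse 2 and HM mouse 3).

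Hcrt was also correlated with Avp, at r = 0.68 (rho 0.56, exact permutation p = 0.0279, adjusted p = 0.175, r = 0.47 without WT mouse 4 and HM mouse 3). With Pmch, the other peptide of the lateral hypothalamus, Hcrt had r = 0.58 (rho 0.55, exact permutation p = 0.0292, adjusted p = 0.175, r = 0.58 without HM mice 2 and 3). Pomc and Cartpt went opposite ways, at r = -0.56 (rho -0.68, exact permutation p = 0.0444, adjusted p = 0.228, r = -0.44 without WT mouse 1 and HM mouse 3). In WT mouse 1 Pomc was 1.08 below and Cartpt 0.19 above its genotype mean on the log2 scale. Oxt and Avp, which share sequence and lie side by side, had an r of only 0.44 (rho 0.39, exact permutation p = 0.244, adjusted p = 0.487, r = 0.41 without WT mouse 2 and HM mouse 3).

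**Figure D4:**
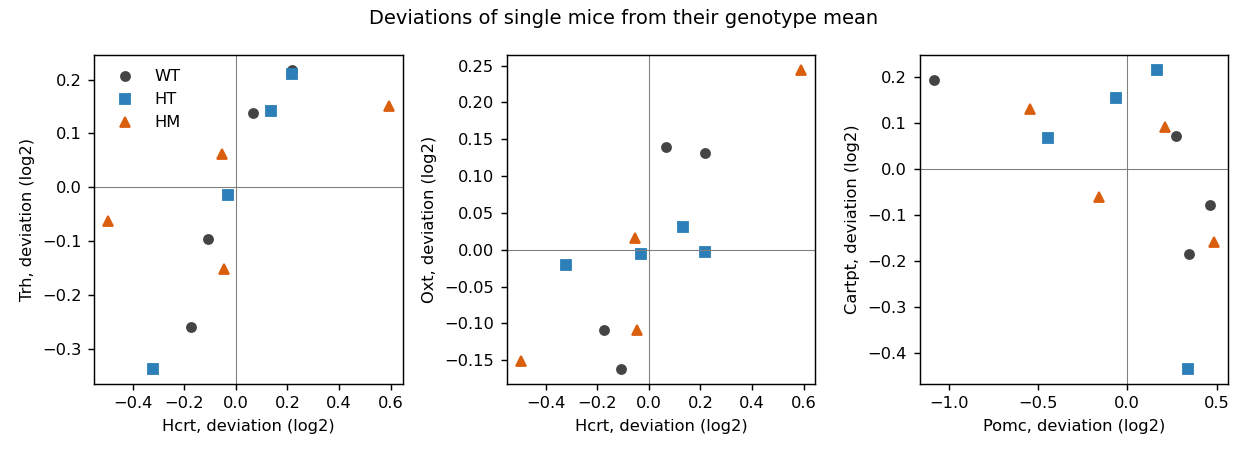
Deviation of each mouse from its genotype mean on the log2 scale for Hcrt against Trh (left), Hcrt against Oxt (middle) and Pomc against Cartpt (right), with WT mice as circles, HT as squares and HM as triangles. Hcrt and Trh share their sign in 11 of 12 mice, and the lone WT circle at the far left of the right panel is WT mouse 1.

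Because the pairs formed by Oxt, Hcrt and Trh had the lowest p, the 250 bases before their transcription starts are shown (RefSeq, GRCm38.p6), at chr2:130575919-130576168 on the plus strand for Oxt, chr11:100762932-100763181 on the minus strand for Hcrt and chr6:92244651-92244900 on the minus strand for Trh. Capitals mark matches, on either strand, to TATAAA (the TATA box), TGACG (the core of the cyclic AMP response element) or AGGTCA (a core motif of nuclear receptors). The matches shown do not overlap each other.
Oxt: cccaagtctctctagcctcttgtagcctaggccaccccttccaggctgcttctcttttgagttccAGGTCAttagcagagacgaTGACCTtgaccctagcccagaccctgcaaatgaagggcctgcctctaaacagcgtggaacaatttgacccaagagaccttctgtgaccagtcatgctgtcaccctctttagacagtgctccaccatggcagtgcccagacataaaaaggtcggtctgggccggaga
Hcrt: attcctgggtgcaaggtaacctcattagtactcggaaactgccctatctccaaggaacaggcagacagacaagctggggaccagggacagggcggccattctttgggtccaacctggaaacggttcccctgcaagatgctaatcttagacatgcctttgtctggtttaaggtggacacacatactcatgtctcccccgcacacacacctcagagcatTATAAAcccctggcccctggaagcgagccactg
Trh: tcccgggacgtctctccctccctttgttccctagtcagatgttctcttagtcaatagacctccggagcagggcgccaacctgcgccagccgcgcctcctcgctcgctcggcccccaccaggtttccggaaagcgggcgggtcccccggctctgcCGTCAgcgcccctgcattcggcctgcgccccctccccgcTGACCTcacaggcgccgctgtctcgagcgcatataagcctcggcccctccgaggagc
Oxt has AGGTCA 185 bases before its start and on the other strand 166 bases before it, Hcrt has TATAAA 33 bases before its start, and Trh has TGACG at 96 and AGGTCA at 57 bases, both on the other strand. No motif was common to these 3 sequences. Promoters were matched for 8 of the 9 genes, and in windows that also hold the first 50 bases of the transcript, each of the 3 motifs was found in 3 of the 8. Of 32851 mouse promoters 13.6% hold TATAAA, 20.8% TGACG and 16.3% AGGTCA. A match of letters is a description and does not show that a factor binds there.

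Since the amount of hypothalamus or of other tissue in a sample could differ between mice, the 9 genes were also compared with markers of 7 regions or tissues, each as the mean of the centered log2 values of its genes. Of the 63 relations 4 had an unadjusted exact permutation p under 0.05, and 0 passed after BH adjustment (lowest adjusted p 0.465). Avp had an r of 0.65 with the hypothalamic markers (rho 0.62, n = 12, exact permutation p = 0.0295, r = 0.46 without WT mouse 1 and HT mouse 1, r = 0.28 without removal of genotype means) and of -0.75 with the blood markers, which are the hemoglobin genes and Alas2 (rho -0.76, exact permutation p = 0.0146, r = -0.68 without HM mice 1 and 3). Hcrt had an r of 0.73 with the markers of the choroid plexus, the tissue that secretes cerebrospinal fluid (rho 0.71, exact permutation p = 0.0163, r = 0.70 without HM mice 3 and 4). Trh had an r of 0.60 with the cerebellar markers (rho 0.59, exact permutation p = 0.0258, r = 0.52 without WT mouse 3 and HM mouse 4). The part of tissue amounts in the levels of these peptides was not tested further.

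The marker levels themselves differed between the genotypes in some cases, by p-values that were not adjusted for the number of tests. Of the 11 hypothalamic markers in the level, 9 were higher and 2 lower in HM than in WT mice. All 4 HM mice exceeded all 4 WT mice in the hypothalamic marker level, with means 0.21 apart (log2 scale, exact permutation p = 0.0286, the lowest possible). Without WT mouse 1, the lowest of the 12, the difference was 0.12 (exact permutation p = 0.0571), and with any HM mouse left out p was 0.0857 to 0.114. HT mice were 0.20 above WT mice (exact permutation p = 0.171), with overlap. The olfactory bulb level, of which all 7 markers had a higher mean in HM mice, was higher than in HT mice by 1.14 (exact permutation p = 0.0286) and than in WT mice by 0.77 (p = 0.0571, exact permutation). Without any single HT mouse the former had an exact permutation p of 0.0571. Cdhr1, Doc2g and Eomes of that list are named by the study from these samples, so the list is not independent of them. All 10 choroid plexus markers had a lower mean in HM than in WT mice, by 0.46 for the level (exact permutation p = 0.314), with HM mice 2 and 4 at -0.79 and -0.82. The blood level was lower in HT than in WT mice by 0.81 (exact permutation p = 0.0571) and higher in HM than in HT mice by 0.94 (p = 0.143, or 0.0286 without HM mouse 3, exact permutation). The striatal level was higher in HT than in WT mice by 0.08 (exact permutation p = 0.114), and the difference of HM from HT mice was -0.08 (exact permutation p = 0.0857). The levels of the cerebellar markers and of the 1 pituitary marker differed by at most 0.20 in any comparison.

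Genes outside the peptide system that followed each of the 9 most closely over the 12 mice, by Pearson's r of the genotype-centered values, were diverse. For Oxt they were Gm28756 (r = 0.93), Rpl15-ps3 (0.90) and Psat1 (0.90), an enzyme of serine synthesis. For Avp they were Stab1 (0.97), Rarb (0.95) and Arhgap10 (0.93), for Hcrt Rassf9 (0.94), Rnh1 (0.92) and Fibp (0.91), and for Pmch Tmem179b (0.92), Tcfl5 (0.92) and Slc26a2 (0.92). Pomc was followed by Gm49125 (0.95), 3110067C02Rik (0.94) and Gm43513 (0.93), Crh by Erg (0.96), Lcat (0.93) and Nat8f1 (0.92), and Trh by Gm42727 (0.94), Lrp2bp (0.92) and Ly6a (0.91). For Cartpt they were Rdh13 (0.96), Lmf1 (0.92) and Tm9sf2 (0.91), and for Gal Nudt16 (0.95), Irak2 (0.92) and Ogg1 (0.91). Each is among the 3 highest of 18005 correlations over the same 12 mice and is given as a description, with no test. No gene was the closest to more than 1 of the 9.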

How the data were processed

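Poly-A RNA of the whole brains of 12 male mice (4 WT, 4 HT, 4 HM, from crosses of heterozygous mice) was sequenced. The authors estimated transcript abundance with Salmon 1.1.0 on GRCm38 with correction for GC content, summed it to genes with tximport and normalized it with DESeq2 1.30.1. The deposited table holds these normalized counts, a signal that is not whole, for 19775 genes, so the count model of the authors was not fitted. Normalized counts summed to 33284951 to 33748623 per mouse, which does not show depth. The submitters' notes name R 4.1.1. Gene names and positions are from GENCODE M21, where 19758 identifiers matched.

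Genotypes were compared with limma 3.58.1 (R 4.3.3, mean-variance trend) on log2(normalized count + 1) after genes averaging under 10 over the 8 mice compared were left out, with BH adjustment over all of them. Fold changes on this scale understate changes of low genes. Correlations used values centered by genotype. Exact permutation tests and correlations used Python 3.11.15, numpy 2.4.6, scipy 1.17.1 and pandas 2.3.3, and were tested on simulated data, as was limma. Mice are separate animals, and p-values measure the spread between them. Counting errors take 1 normalized count as 1 read and cover counting only.

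The 9 genes and all lists were chosen with earlier results of these data known. Named in the text were the 9 genes, Slc6a20a, per gene the 3 others with the highest r, pathway genes with an unadjusted p under 0.05, and up to 2 most abundant genes of each list. Pcp2, Cbln3, Gabra6, Nkx2-1, Agrp, Ghrh, Tshb, Car8, Slc1a6, Fat2, Alas2, Cdhr1, Doc2g and Eomes were named beside them as markers, and Mc3r for its groups without overlap. Other settings tried were a pseudocount of 0.1, no filter on low genes, a single fit of the 12 mice, blocks for replicate number or for the first 3 digits of the animal number, a variance prior with no trend, quantile normalization, no centering, and each mouse left out in turn, for the marker levels after seeing the data. What the first digits mark is not given in the sources used here.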

Additional observations from a re-analysis of the deposited data

Results flagged for a closer look

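Pomc in WT mouse 1 had 29.2 normalized counts, and its distance from the next WT mouse was 0.879 of the whole range of the 4 WT mice on the log2 scale, above the 95% critical value of Dixon's test. The other WT mice had 76.4 to 87.1. It was the only such value among the 9 genes in 3 genotypes, and chance alone singles out about 1 group in 20. The same mouse had the lowest level of hypothalamic markers of the 12, at -0.40 on the centered log2 scale, and the lowest Agrp, at 2.04 normalized counts. WT mouse 1 was also below its genotype mean for Avp (-0.24) and Pmch (-0.12) on the log2 scale, and above it for Oxt (0.14), Hcrt (0.06), Crh (0.20), Trh (0.14), Cartpt (0.19) and Gal (0.11). The part of the amount of hypothalamus in this value was not tested.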

How the results depend on the processing

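The 9 genes passed the adjusted threshold 0 times in each comparison under every alternative run. Blocking for the replicate number gave 0 calls in each comparison. Mice of different genotypes with the same number did not deviate together (r from -0.07 to 0.09, 0 of 12 over 0.1), so the numbers do not pair them. For mice of different genotypes with the same start of the animal number r was -0.07 to 0.12, with 1 of 10 over 0.1. A block for the start of the animal number rests only on mice that share it with a mouse of the other genotype. In HT against WT these were all but WT mouse 1. In HM against WT they were WT mice 1 and 2 and HM mice 3 and 4, and in HM against HT only HM mouse 4 and HT mice 1 and 2. With this block the log2 fold change turned direction for Avp (-0.021) and Pomc (-0.011) in HT against WT. It also did so for Avp in HM against WT (0.029) and for Crh in HM against HT (-0.054). With each mouse left out in turn it spanned 0 in HT against WT for Avp (-0.027 to 0.13), Trh (-0.019 to 0.18) and Cartpt (-0.017 to 0.20), in HM against WT for Oxt (-0.017 to 0.11), Pomc (-0.060 to 0.48) and Crh (-0.24 to 0.058), and in HM against HT for Hcrt (-0.25 to 0.11), Pomc (-0.26 to 0.084), Trh (-0.070 to 0.11), Cartpt (-0.050 to 0.17) and Gal (-0.023 to 0.15). Between 0 and 1 pairs of neuropeptides passed when single mice were left out, namely Oxt and Pmch without WT mouse 1 (r = 0.68, against 0.45 with it) and Hcrt and Trh without HM mouse 1 or HM mouse 2. Without removal of genotype means r was 0.52 for Oxt and Hcrt and 0.51 for Hcrt and Trh. With the means of the first digits of the animal number removed, chosen after seeing the data, r was 0.86 for Hcrt and the choroid plexus. Slc6a20a in HT against WT lost its call with a variance prior without a trend (adjusted p = 0.145, limma, BH), with its log2 fold change still -0.97. The causes were not tested. The number of 4 mice per genotype and the low read counts of Gal and Pomc limit what could be detected.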
